A study of Mus musculus with 36 samples.

Results

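The genes described are 10 components of the mammalian circadian clock, Arntl, Clock, Per1, Per2, Per3, Cry1, Cry2, Nr1d1, Nr1d2 and Dbp. They were chosen by gene symbol as components of the clock, and all 10 were found among the 36172 gene entries of the deposited table. Polyadenylated RNA was sequenced from the hippocampus of Cx3cr1-NuTRAP mice, in which tamoxifen switches on a cre recombinase under Cx3cr1 control, active in microglia and other macrophages of the tissue, so that recombined cells carry a GFP tag on their ribosomes. Input libraries hold RNA of the cleared whole-tissue homogenate, and TRAP libraries hold RNA pulled down with the tagged ribosomes by an anti-GFP antibody. The comparison of induction ages was the aim of the series.

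All animals of the 4 groups carried the same genotype and all were induced. The young group had 10 inputs from animals of 6 months induced early (5 females, 5 males). The old early group had 12 inputs from animals of 22 months induced early (7 females, 5 males). The old late group had 7 inputs from animals of 22 months induced late (5 females, 2 males), and the TRAP group had 7 libraries from those same 7 animals. Ages at induction and times of collection are not given in the sources used here. The numbers that follow the letter S in the sample titles run from 1 to 23 in the old early group, from 25 to 38 in the old late and TRAP libraries and from 39 to 57 in the young group. Age therefore cannot be told apart from the time of day of collection or from the order that these numbers stand for. The same holds for induction age between the old groups. Each library carries 1 animal number, and nothing else in the labels describes how animals were housed or collected.

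The circadian clock is a transcriptional loop with a period of about a day. ARNTL (also called BMAL1) and CLOCK, or its relative NPAS2, bind E-box motifs and switch on the Per and Cry genes, whose proteins return to the nucleus and inhibit them. A second loop runs through the nuclear receptors NR1D1 and NR1D2 (REV-ERB alpha and beta), which repress Arntl and compete with the activating ROR receptors, and DBP is an output factor of the loop that acts at D-box motifs. The loop runs in most cells of the body, including hippocampal neurons and glia, so the level of these genes in a tissue sample depends on the hour at which it was taken.

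Library totals of estimated counts lay from about 12900000 to 20450000, and in each comparison below all 10 genes passed the filter on low counts. Microglial markers were present in every input and were higher in TRAP, with a median log2 fold change of 4.28 over 8 of 8 markers, which all passed the test. Neuronal markers summed to 7628 to 9115 counts-per-million units (CPM) in TRAP against 9285 to 10220 CPM in the inputs of the same animals, so neuronal RNA was still abundant in the pulldown. One library stood apart. The male old early replicate 5 had 2095 CPM of haemoglobin and Alas2 RNA, markers of blood, against 122 to 364 CPM in the other 11 libraries of its group, and the results on which it bears most are also given without it. Blood markers were also higher in old late inputs, at 255.3 to 667.1 CPM, than in young inputs, at 132.5 to 320.1 CPM, with some overlap. Summed choroid plexus markers ranged from 44.8 to 4028 CPM between inputs, with low and high libraries in each of the 3 input groups.

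In the deposited table, whose coordinates are on mm10, Arntl lies at chr7:113207465-113314126 and Clock at chr5:76212177-76304548. Per1 lies at chr11:69098956-69109957, Per2 at chr1:91415982-91459328 and Per3 at chr4:151003655-151044622. Cry1 lies at chr10:85131700-85185054 and Cry2 at chr2:92403647-92434069, Nr1d1 at chr11:98767935-98775242 and Nr1d2 at chr14:18204056-18239106, and Dbp at chr7:45705247-45710203. The table holds 1 value per gene and library, so isoforms were not told apart.

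The start regions of the members were searched for the letters through which the loop is known to act. RefSeq promoter windows of the GRCm38.p6 build, from 250 bases before to 50 bases after a transcript start, were matched for 9 of the 10 genes and gave 13 windows. Per2 had no window and was not searched. Both strands were searched for the E-box CACGTG, the variant E-box CACGTT, the D-box TTATGTAA, the ROR and REV-ERB element (AANTN followed by GGTCA) and the cyclic AMP element TGACGTCA; none of these letter strings contains another. At least 1 of them was found in 6 of the 13 windows, which belong to Arntl, Per1, Per3, Cry1, Cry2 and Nr1d1. Those 6 windows are shown because they hold the motifs of the loop beside genes whose levels differed between groups, with the matches in capitals. They are, for Arntl, the second of its windows at chr7:113207261-113207560 (plus strand), for Per1 chr11:69098699-69098998 (plus strand), for Per3 chr4:151044616-151044915 (minus strand), for Cry1 chr10:85185005-85185304 (minus strand), for Cry2 chr2:92434020-92434319 (minus strand) and for Nr1d1 chr11:98775328-98775627 (minus strand).
Arntl: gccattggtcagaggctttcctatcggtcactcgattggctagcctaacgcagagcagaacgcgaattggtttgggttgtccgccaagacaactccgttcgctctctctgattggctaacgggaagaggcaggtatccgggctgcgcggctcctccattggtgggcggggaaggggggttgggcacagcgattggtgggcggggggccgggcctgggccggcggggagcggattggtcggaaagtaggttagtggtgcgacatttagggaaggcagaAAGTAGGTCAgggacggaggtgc
Per1: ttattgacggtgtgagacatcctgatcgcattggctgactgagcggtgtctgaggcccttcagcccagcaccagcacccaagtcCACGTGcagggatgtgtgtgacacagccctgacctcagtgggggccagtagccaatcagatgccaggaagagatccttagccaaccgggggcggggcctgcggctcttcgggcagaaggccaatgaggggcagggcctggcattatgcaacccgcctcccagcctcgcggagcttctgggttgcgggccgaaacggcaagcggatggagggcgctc
Per3: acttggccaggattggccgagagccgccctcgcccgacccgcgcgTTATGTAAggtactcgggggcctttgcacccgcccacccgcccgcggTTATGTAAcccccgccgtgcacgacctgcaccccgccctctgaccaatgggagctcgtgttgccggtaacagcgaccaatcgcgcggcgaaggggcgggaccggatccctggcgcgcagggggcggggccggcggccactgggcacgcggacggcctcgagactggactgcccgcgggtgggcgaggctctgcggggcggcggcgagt
Cry1: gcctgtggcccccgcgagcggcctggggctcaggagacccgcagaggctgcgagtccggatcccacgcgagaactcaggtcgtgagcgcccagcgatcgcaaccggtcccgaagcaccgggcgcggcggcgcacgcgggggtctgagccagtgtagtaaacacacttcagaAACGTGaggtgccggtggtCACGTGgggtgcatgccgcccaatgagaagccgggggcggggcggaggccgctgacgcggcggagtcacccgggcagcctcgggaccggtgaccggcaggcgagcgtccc
Cry2: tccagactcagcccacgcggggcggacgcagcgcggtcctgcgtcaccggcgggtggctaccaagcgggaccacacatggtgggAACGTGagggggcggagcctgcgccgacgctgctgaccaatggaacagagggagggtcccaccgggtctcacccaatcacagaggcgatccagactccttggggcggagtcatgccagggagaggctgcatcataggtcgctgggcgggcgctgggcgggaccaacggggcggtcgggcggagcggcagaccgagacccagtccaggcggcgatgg
Nr1d1: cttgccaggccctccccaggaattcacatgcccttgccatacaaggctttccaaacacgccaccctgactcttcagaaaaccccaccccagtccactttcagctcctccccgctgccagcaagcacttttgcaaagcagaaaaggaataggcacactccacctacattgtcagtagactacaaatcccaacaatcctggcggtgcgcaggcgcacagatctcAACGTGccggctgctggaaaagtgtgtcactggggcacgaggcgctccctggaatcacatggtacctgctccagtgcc

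The window of Per3 held the D-box 2 times, first bases at -205 and -158 from the start, where 0.931% of the 32544 windows of the same length in the table hold it at all. E-boxes stood at -166 in Per1 and -60 in Cry1, against 7.17% of all windows. The variant E-box, here read on the opposite strand as AACGTG, was found at -79 in Cry1, -166 in Cry2 and -28 in Nr1d1, against 4.71% of all windows. The Arntl window held the ROR and REV-ERB element, as AAGTAGGTCA, at 28 bases after the start, against 0.608% of all windows. No member window held the cyclic AMP element, which 1.8% of all windows hold. These matches describe the letters of the windows only.

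Levels of the 10 genes were compared per kilobase of exon sequence, using the union of exons in GENCODE M21. In young inputs Nr1d1 stood highest at 78.95 ± 2.94 CPM per kb (SD, n = 10). Cry2 followed at 25.01 ± 1.396 CPM per kb, and the ranges of these 2 genes did not overlap. Dbp, Per1 and Nr1d2 came next at 17.9 ± 2.43, 17.1 ± 2.15 and 16.8 ± 1.07 CPM per kb, and their ranges overlapped. Per2 lay alone at 7.97 ± 0.74 CPM per kb. The lowest 4 genes were Clock at 4.97 ± 0.28, Cry1 at 4.90 ± 0.50, Per3 at 4.87 ± 0.39 and Arntl at 4.67 ± 0.20 CPM per kb, again with overlapping ranges. In all 4 groups Nr1d1 and Cry2 ranked first and second, Nr1d2 ranked the fifth and Per2 ranked sixth. Dbp stood above Per1 in the 3 input groups and below it in TRAP, at 18.9 ± 1.95 against 22.0 ± 2.04 CPM per kb, where Per1 overlapped with Cry2. In the lower part Per3 moved from the ninth place in young inputs to the last in both old groups and in TRAP, at 3.54 ± 0.35 CPM per kb in old early (n = 12), 3.27 ± 0.22 in old late (n = 7) and 3.15 ± 0.40 in TRAP (n = 7).

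Variation between animals of a group differed among the members. After group and sex were accounted for, the SD of the log2 CPM over the 29 inputs was 0.247 for Per2, 0.178 for Dbp and 0.158 for Per1, which placed these genes at the 96.1, 92 and 91 percentile among genes of like level. Nr1d1 lay at the other end with an SD of 0.049 and a percentile of 4.1. Cry1, at 0.124, and Cry2, at 0.067, were also less variable than most genes of like level (percentiles 13.1 and 17.8). With old early replicate 5 left out, the SD was 0.208 for Per2 (percentile 95), 0.103 against 0.125 for Clock (percentile 56.5 against 71.5) and 0.101 against 0.124 for Per3 (percentile 29.6 against 55).

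**Figure D1:**
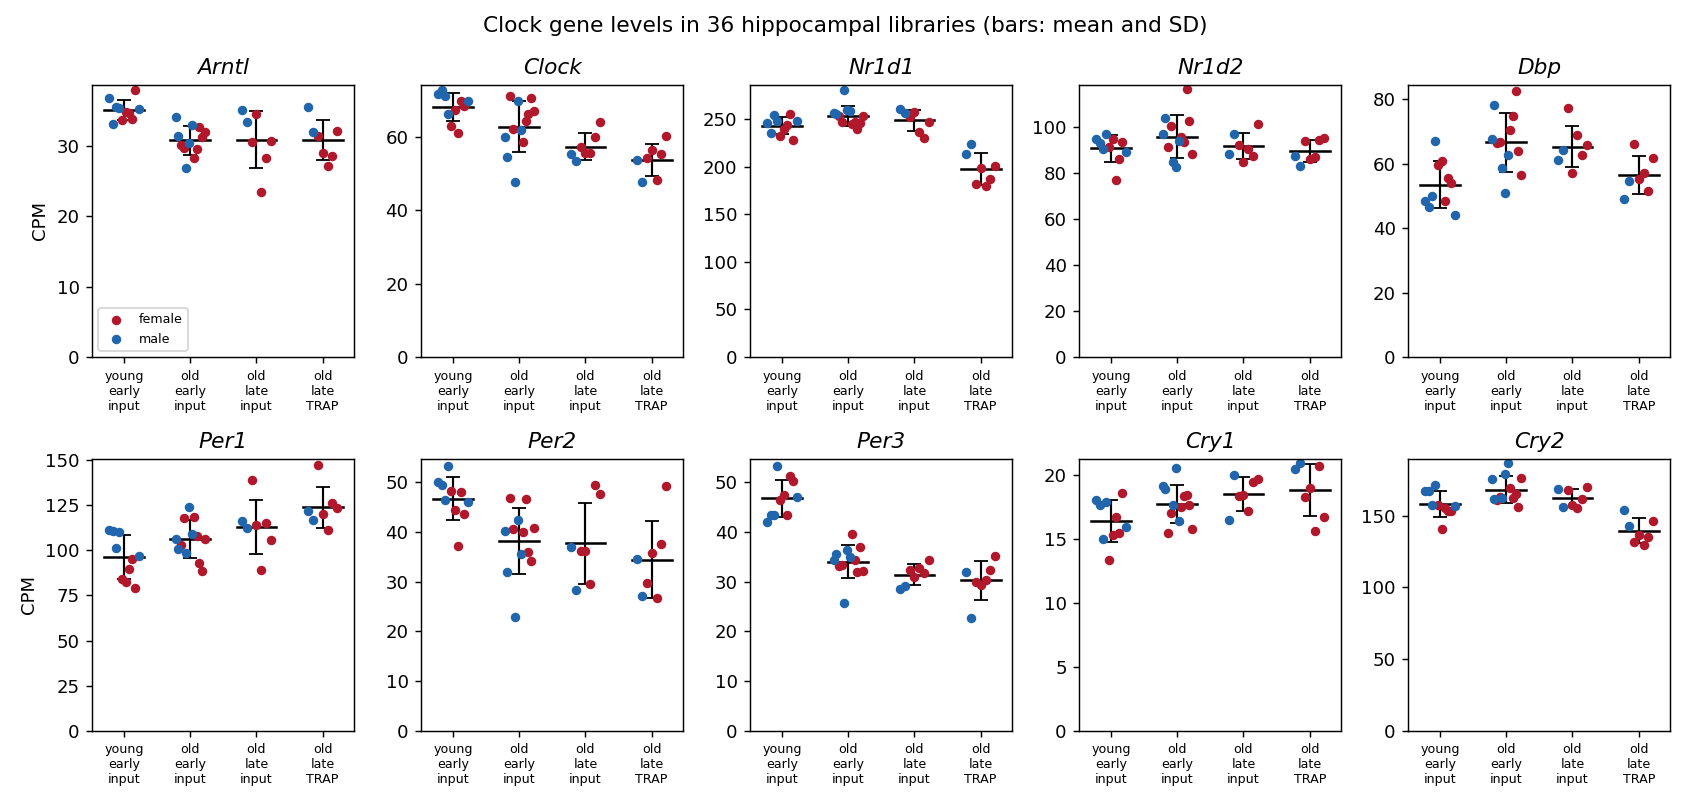
CPM of the 10 clock genes (vertical axes, from 0) in the 36 libraries by group, with females in red, males in blue and black bars for mean and SD. Every old input lies below every young input in Per3, and every TRAP library lies below every old late input in Cry2 and Nr1d1. The share of all genes that separate in these ways was not computed.

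The first comparison asked which clock genes differed with age when induction was early. In old early inputs Arntl, Per2 and Per3 were lower than in young inputs, and Cry2, Nr1d1 and Dbp were higher. The largest differences were those of Per3, which fell to 0.73-fold, and Dbp, which rose 1.25-fold. With 6 of 10 members past an adjusted p of 0.05 in edgeR's quasi-likelihood test, 3 in each direction, the share stands beside 25.6% of all 14948 genes tested (13% higher, 12.6% lower). The second comparison set the 7 old late inputs against the same 10 young inputs, so the 2 comparisons share their controls and are given side by side. There Arntl, Clock, Per2 and Per3 were lower and Per1, Cry1 and Dbp were higher, 7 of 10 against a background of 34.5% (17% higher, 17.5% lower). The median log2 fold change of the 10 genes was 0.08 in old early and 0.043 in old late inputs, against 0.007 and 0.011 over all genes tested.

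Among the activators, Arntl ran from 33.2 through a median of 35.1 to 38 CPM in young inputs. In old early inputs it ran from 26.9 through 30.9 to 34.1 CPM, and in old late inputs from 23.6 through 30.8 to 35.1 CPM. Of the 12 old early inputs 11 lay below the lowest young one, whereas the old late inputs spread over and below the young range. The log2 fold change was -0.175 ± 0.05 (SE, edgeR adjusted p = 0.0108) in old early and -0.16 ± 0.06 (edgeR adjusted p = 0.0348) in old late inputs. The old early value without old early replicate 5 was -0.16 (adjusted p = 0.0171). The old late call rests on single libraries: without old late replicate 5, the lowest in the group, the value was -0.11 (adjusted p = 0.0893). It also missed the threshold without old late replicate 6, without young replicate 6 or 9, and with the fit limited to the 2 groups (adjusted p = 0.0612). Clock, which encodes the partner of ARNTL, had 61.1, 69.1 and 72.95 CPM as the lowest, median and highest young values, 47.8, 63.2 and 71.1 CPM in old early and 53.6, 55.7 and 64.2 CPM in old late inputs. All 7 old late inputs lay below the young median and 6 of them below the lowest young input. Clock fell by 0.25 ± 0.06 on the log2 scale in old late inputs (edgeR adjusted p = 0.00171). In old early inputs its log2 fold change was -0.11 ± 0.05 with an adjusted p of 0.0936, although leaving out young replicate 7 or old early replicate 3 or 6 brought it under the threshold. It was -0.088 without old early replicate 5 (adjusted p = 0.149).

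The receptors of the second loop differed little. Nr1d1 ran from 228.3 through 244.8 to 255 CPM in young, from 239.4 through 253 to 280.7 CPM in old early and from 230.2 through 251.9 to 260.5 CPM in old late inputs. These ranges overlap in part, with 5 of 12 old early and 3 of 7 old late inputs above the highest young one and 0 below the lowest. Its log2 fold change was 0.075 ± 0.025 (edgeR adjusted p = 0.0258) in old early and 0.061 ± 0.029 (edgeR adjusted p = 0.101) in old late inputs. The old early call was lost in 8 of 29 fits that each left out 1 library, among them the fit without the blood-rich replicate 5, the highest library of the group, at 0.056 (adjusted p = 0.082). The other 7 libraries were old late replicates 1, 3 and 7, young replicates 2 and 9 and old early replicates 3 and 12. Exons of Nr1d1 share 263 bases with Thra on the opposite strand, and the strand used in counting is not given in the sources used here. Nr1d2, its paralog, had a median of 92.0 CPM in young, 94.5 in old early and 90.4 CPM in old late inputs, with log2 fold changes of 0.086 ± 0.048 and 0.026 ± 0.056 and edgeR adjusted p-values of 0.19 and 0.751.

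Dbp, the D-box factor, had a lowest, median and highest value of 44.2, 52.0 and 67.0 CPM in young inputs. It had 50.9, 66.6 and 82.6 CPM in old early and 57.1, 64.3 and 77.4 CPM in old late inputs. Of the old early inputs 11 of 12 and of the old late inputs 7 of 7 lay above the young median, and of the young inputs replicate 4 lay above both old medians. The log2 fold change was 0.32 ± 0.07 in old early (edgeR adjusted p = 0.00157) and 0.28 ± 0.08 in old late inputs (edgeR adjusted p = 0.00934). In all fits that left out 1 library both calls stayed under the threshold. Exons of Dbp share 539 bases with Sphk2 on the opposite strand.

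The 3 Period genes encode the repressors of the loop, and they did not move together. Per1 had positive log2 fold changes in both old groups and passed the test in old late inputs, while Per2 and Per3 were lower in both. Per1 ran from 79.3 through 95.96 to 111.4 CPM in young, from 88.3 through 106.3 to 124.1 CPM in old early and from 88.8 through 114 to 139.1 CPM in old late inputs. The groups overlapped, with 10 of 12 old early and 6 of 7 old late inputs above the young median. Its log2 fold change of 0.17 ± 0.06 in old early inputs just missed the threshold (edgeR adjusted p = 0.0504). Of 29 fits without 1 library 9 brought it under, as did DESeq2 (adjusted p = 0.0376). Among those 9 was the fit without old early replicate 5, at 0.18 (edgeR adjusted p = 0.045). In old late inputs the log2 fold change of Per1 was 0.28 ± 0.07 (edgeR adjusted p = 0.00368).

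Per2 had a lowest, median and highest value of 37.2, 47.3 and 53.2 CPM in young inputs, 22.8, 40.0 and 46.9 CPM in old early inputs and 28.2, 36.2 and 49.5 CPM in old late inputs. All 12 old early inputs lay below the young median, and old late replicates 6 and 7 lay within the young range. Per2 fell by 0.29 ± 0.095 on the log2 scale in old early inputs (edgeR adjusted p = 0.0216) and by 0.32 ± 0.11 in old late inputs (edgeR adjusted p = 0.0251). The old early value was -0.245 without old early replicate 5 (adjusted p = 0.0352). The old late call was lost without old late replicate 2, at -0.26 (adjusted p = 0.093), or without old late replicate 5, at -0.27 (adjusted p = 0.0633).

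Per3 gave the clearest separation of the 10 genes. It ran from 42.1 through 46.7 to 53.2 CPM in young inputs, from 25.7 through 34.3 to 39.6 CPM in old early and from 28.5 through 31.8 to 34.4 CPM in old late inputs. Every one of the 19 old inputs lay below the lowest of the 10 young inputs. The share of all genes that separate in this way was not computed. Per3 fell by 0.455 ± 0.05 on the log2 scale in old early inputs (edgeR adjusted p = 1.83e-07) and by 0.58 ± 0.06 in old late inputs (edgeR adjusted p = 3.67e-08). In absolute size these differences exceed those of 92.8% and 92.4% of all genes tested. Without old early replicate 5, the lowest of its group, the old early value was -0.43 ± 0.045 (adjusted p = 7.3e-08).

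The Cryptochromes, which act with the Period proteins, had small positive log2 fold changes in both old groups. Cry1 ran from 13.4 through 16.3 to 18.6 CPM in young, from 15.4 through 17.6 to 20.5 CPM in old early and from 16.5 through 18.4 to 20 CPM in old late inputs. All 7 old late inputs lay above the young median, and the log2 fold change was 0.21 ± 0.065 (edgeR adjusted p = 0.0141). In old early inputs it was 0.13 ± 0.06 with an edgeR adjusted p of 0.0913. Cry2 passed in old early inputs. It ran from 140.9 through 157 to 171.5 CPM in young, from 156.3 through 164 to 186.8 CPM in old early and from 155.5 through 161.4 to 169.6 CPM in old late inputs. Its log2 fold change was 0.105 ± 0.03 (edgeR adjusted p = 0.0104) in old early and 0.069 ± 0.035 (edgeR adjusted p = 0.127) in old late inputs. Exons of Cry2 share 295 bases with D930015M05Rik on the opposite strand.

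**Figure D2:**
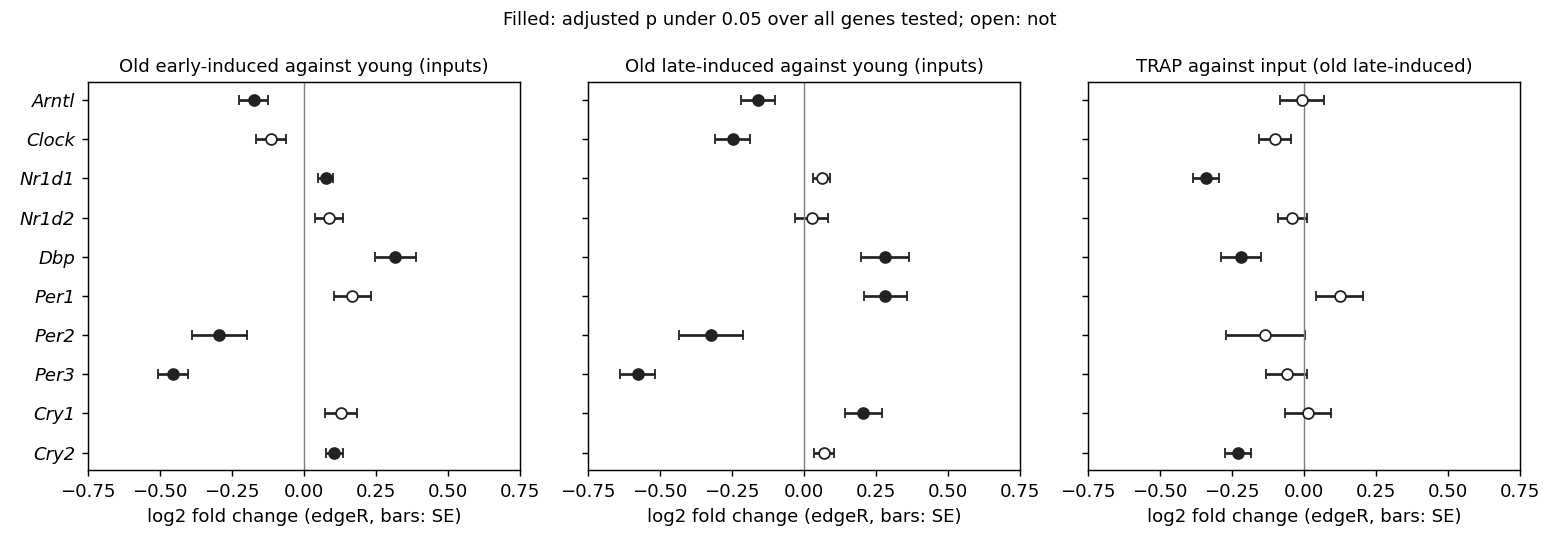
Log2 fold changes (horizontal axes) with SE of the 10 clock genes in 3 comparisons, filled where the edgeR adjusted p over all genes was under 0.05. Per3 lies farthest to the left in both comparisons with young inputs at -0.455 and -0.58, and Nr1d1 farthest to the left in TRAP against input at -0.34.

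In females alone fewer of these differences passed, on 5 young, 7 old early and 5 old late inputs. Fewer of all genes passed as well. Of 14862 genes 638 were higher and 560 lower in old early females, and 1396 were higher and 1391 lower in old late females. Per3 and Dbp were the members called in both comparisons, Per3 with -0.46 ± 0.06 (adjusted p = 6.24e-05) and -0.54 ± 0.06 (adjusted p = 1.18e-05) and Dbp with 0.31 ± 0.08 (adjusted p = 0.0259) and 0.265 ± 0.09 (adjusted p = 0.0437). Arntl, Per1 and Cry1 passed in the old late comparison of females as well. The log2 fold change of Per2 was -0.12 ± 0.11 and -0.145 ± 0.12 in females, with adjusted p-values of 0.581 and 0.436, against -0.29 and -0.32 over both sexes. That of Clock in old early females was -0.002 ± 0.05 (adjusted p = 0.99).

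Other genes of the clock were followed in a list of 23, of which 22 were tested. In old early inputs 4 of 22 rose and 0 fell, beside 13% of all genes higher and 12.6% lower, and the median log2 fold change of 0.067 stood beside 0.007 over all genes. Among them Ciart, a repressor of CLOCK and ARNTL, rose by 0.33 ± 0.10 (edgeR adjusted p = 0.0175), Bhlhe40, an E-box repressor, by 0.31 ± 0.04 (adjusted p = 7.43e-06) and Csnk1e, a kinase of Period proteins, by 0.13 ± 0.035 (adjusted p = 0.00514). In old late inputs 7 of 22 rose and 2 fell, beside 17% and 17.5% of all genes, with a median of 0.054 beside 0.011. Among the increases were those of Rorb, a ROR receptor (0.49 ± 0.13), Ciart (0.40 ± 0.12) and Bhlhe40 (0.29 ± 0.05). The 2 that fell were Wee1, a cell cycle kinase under clock control, by 0.27 ± 0.07 (adjusted p = 0.00366), and Tef, a D-box factor related to DBP, by 0.18 ± 0.04 (adjusted p = 0.000378); without old early replicate 5 Csnk1a1 was called lower as well, at -0.091. Bhlhe40 had 102.5 to 126.1 CPM in young and 124.2 to 158.7 CPM in old early inputs, so that the ranges touched only at their edges. Npas2, the relative of Clock, was not called, at 0.009 ± 0.064 and 0.061 ± 0.074.

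Genes that respond to neuronal activity and to glucocorticoids, both known inputs to Per1, also differed between the groups. Of 12 immediate early genes, which respond within minutes to activity, 11 rose in old early and 11 in old late inputs, with medians of 0.80 and 0.83. Fos ran from 6.57 through 11.8 to 20.3 CPM in young, from 23.4 through 31.4 to 51.7 CPM in old early and from 28.1 through 37.5 to 42.9 CPM in old late inputs, with no overlap between young and old. Its log2 fold changes were 1.47 ± 0.15 (edgeR adjusted p = 1.84e-08) and 1.59 ± 0.16 (edgeR adjusted p = 1.97e-08). Of 12 glucocorticoid-responsive genes 6 fell and 0 rose in each comparison, among them Tsc22d3 by 0.35 ± 0.08 and 0.34 ± 0.10 and Fkbp5 by 0.39 ± 0.06 and 0.53 ± 0.07. The 2 lists summed to 631 to 1121 CPM and 454 to 771 CPM in old early inputs, and to 337 to 622 CPM and 679 to 830 CPM in young inputs. Their part in the differences of the clock genes was not tested.

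Markers of cell types moved with age in the same inputs. All 8 microglial markers rose in both comparisons (medians 0.37 and 0.54), 5 of 6 oligodendrocyte markers rose in old early and 6 of 6 in old late inputs (0.32 and 0.48), and 3 of 3 blood markers rose in old late inputs (1.515). In old early inputs 2 of 3 blood markers passed (median 0.92), and without replicate 5 none did (0 of 3, median 0.285). Neuronal markers had 1 of 8 higher in old early inputs, none without replicate 5, and 3 of 8 lower in old late inputs, with medians of -0.033 and -0.052. Astrocyte markers rose in 2 of 6 cases in each comparison (medians 0.065 and 0.116). Aldoc had 686.1 to 779.7 CPM in young, 801 to 971.7 CPM in old early and 820.7 to 921.1 CPM in old late inputs, without overlap between young and old. Of 4 markers of dentate gyrus and CA fields 2 fell in old early and 3 in old late inputs (medians -0.12 and -0.22), and Prox1, a marker of dentate granule neurons, had 33.6 to 46.9 CPM in young, 21.3 to 43.1 CPM in old early and 22.8 to 30.7 CPM in old late inputs. Endothelial markers rose in 1 of 4 cases in each comparison, and none of 4 choroid plexus markers was called. In a bulk sample fewer cells of a type and less RNA per cell cannot be told apart. The part of these shifts in the levels of the clock genes was not tested.

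Induction age was compared in old animals. None of the 10 members was called between old late and old early inputs by edgeR (0 of 10), nor by DESeq2 or limma voom, and 2 of them, Clock and Per3, had an unadjusted p under 0.05. Over all genes 5 of 14948 were called, a background of 0.0334% (0.0268% higher, 0.00669% lower), with 1736 at an unadjusted p under 0.05. The log2 fold changes of the members lay between -0.13 ± 0.06 for Clock (adjusted p = 0.352) and 0.11 ± 0.07 for Per1 (adjusted p = 0.54). That of Per3 was -0.12 ± 0.06 (adjusted p = 0.415), and that of Dbp was -0.037 ± 0.08 (adjusted p = 0.896). The 2 groups overlapped in every member. Without old early replicate 5, 164 genes were called between old late and old early inputs. These held 3 of 3 blood markers (median 1.1) and 1 of 22 other clock genes, all higher in old late inputs. Again 0 of 10 members were called, with Clock lowest at an adjusted p of 0.084. The part of blood in the values of the members was not tested. Against young inputs Clock, Per1 and Cry1 were called in old late and not in old early inputs, and Cry2 and Nr1d1 in old early and not in old late inputs. The difference between the 2 old groups, tested here directly, passed for none of these 5 genes, with 0.078 ± 0.06 for Cry1 (adjusted p = 0.653), -0.036 ± 0.034 for Cry2 (adjusted p = 0.708) and -0.014 ± 0.028 for Nr1d1 (adjusted p = 0.881).

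Sex was compared within the same 29 inputs, 12 from males and 17 from females. None of the members was called by edgeR (0 of 10), DESeq2 or limma voom, beside 26 of 14948 genes, or 0.174% (0.0468% higher, 0.127% lower in males), and 3 had an unadjusted p under 0.05. These were Nr1d1 with a log2 difference, male over female, of 0.069 ± 0.022 (adjusted p = 0.272), Cry2 with 0.073 ± 0.027 (adjusted p = 0.34) and Per1 with 0.13 ± 0.06 (adjusted p = 0.395). For Per1 the sexes separated in young inputs. The 5 young males had 96.7 to 111.4 CPM and the 5 young females 79.3 to 95.2 CPM, without overlap, whereas old early males had 98.7 to 124.1 CPM and old early females 88.3 to 118.7 CPM.

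Whether the age difference itself differed between the sexes was tested in the 22 early-induced inputs. The interaction called none of the members and none of 14953 genes by edgeR, a background of 0%, with 2301 genes and 3 members at an unadjusted p under 0.05. DESeq2 called 13 genes and limma voom none, and neither called a member. The 3 members were Clock with -0.24 ± 0.10 (edgeR adjusted p = 0.26), Per1 with -0.25 ± 0.10 (edgeR adjusted p = 0.263) and Per2 with -0.37 ± 0.16 (edgeR adjusted p = 0.273). A negative value means that the log2 fold change of old over young was lower in males than in females. For Clock and Per2 this was a larger fall in males, and for Per1 a smaller rise. Without old early replicate 5, a male, the 3 interaction values were -0.18 (adjusted p = 0.457), -0.22 (adjusted p = 0.453) and -0.26 (adjusted p = 0.471). Clock had 66.4 to 72.95 CPM in young males and 47.8 to 69.95 CPM in old early males, against 61.1 to 69.85 CPM and 58.6 to 71.1 CPM in females. Per3, at 0.021 ± 0.11 (edgeR adjusted p = 0.949), and Dbp, at 0.015 ± 0.15 (edgeR adjusted p = 0.974), gave interaction values near 0. Markers of choroid plexus and blood had interaction medians of 2.89 over 4 genes and 1.51 over 3 genes in the same fit, with none called. These medians were 2.49 and 0.206 without old early replicate 5. The part of these tissues in the values of the clock genes was not tested.

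The pulldown was compared with the input of the same 7 old late animals. Nr1d1, Cry2 and Dbp were lower in TRAP and the other 7 genes were not called, so that 3 of 10 passed where 59.2% of 14596 genes did (30.4% higher, 28.8% lower). That fit held sex but no term for the animal. With the animal as a block the same 3 members were lower and Per1 was higher, beside 4650 genes higher and 4680 lower of 14596. Of all calls in the fit without the block 51.4% were higher in TRAP, against 34% with upper quartile scaling and 38.3% with library size alone. Under these 2 scalings 6 and 5 members were lower and none higher, beside 6372 and 5748 of 14596 genes lower. The median log2 fold change of the members was -0.081 against -0.02 over all genes tested. All 10 genes were detected in TRAP at 0.79 to 1.09 times the level of input, and none approached the enrichment of the microglial markers.

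Nr1d1 ran from 179.3 through 198.6 to 223.5 CPM in TRAP and from 230.2 through 251.9 to 260.5 CPM in input. The ranges did not overlap, and within animals TRAP was lower in 7 of 7, by log2 ratios of -0.475 to -0.197. Nr1d1 fell by 0.34 ± 0.045 on the log2 scale (edgeR adjusted p = 5.51e-06). Cry2 ran from 129.2 through 136.7 to 153.9 CPM in TRAP and from 155.5 through 161.4 to 169.6 CPM in input. It did not overlap either, was lower in 7 of 7 animals, and fell by 0.23 ± 0.04 (edgeR adjusted p = 0.000308). Dbp ran from 49.1 through 55.1 to 66.0 CPM in TRAP and from 57.1 through 64.3 to 77.4 CPM in input. Its ranges overlapped, but TRAP was lower in 7 of 7 animals, by -0.32 to -0.05, and the gene fell by 0.22 ± 0.07 (edgeR adjusted p = 0.0121).

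Per1 was the member with the highest TRAP to input ratio. It ran from 111.3 through 121.7 to 147.4 CPM in TRAP and from 88.8 through 114 to 139.1 CPM in input, and TRAP was higher in 7 of 7 animals, by 0.055 to 0.325. Its log2 fold change was 0.12 ± 0.08 (edgeR adjusted p = 0.2). With the animal as a block it was 0.13 ± 0.05 and passed (edgeR adjusted p = 0.0215), the one member whose call the pairing changed. With upper quartile scaling, which moves the median of all genes from -0.02 to -0.165, Per1 reached -0.021 and Cry1 -0.131. Relative to the median of all genes Per1 stood at 0.144 under both scalings and Cry1 at 0.033 and 0.034.

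The remaining 6 genes were neither uniformly higher nor lower across animals. The paired ratios of Clock, from -0.21 to 0.023, and of Per2, from -0.40 to 0.045, were negative in 6 of 7 animals, with log2 fold changes of -0.10 ± 0.06 (edgeR adjusted p = 0.129) and -0.13 ± 0.14 (edgeR adjusted p = 0.42). Arntl, Per3, Cry1 and Nr1d2 had mean paired ratios of 0.005, -0.062, 0.019 and -0.032, and each was positive in some animals and negative in others.

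**Figure D3:**
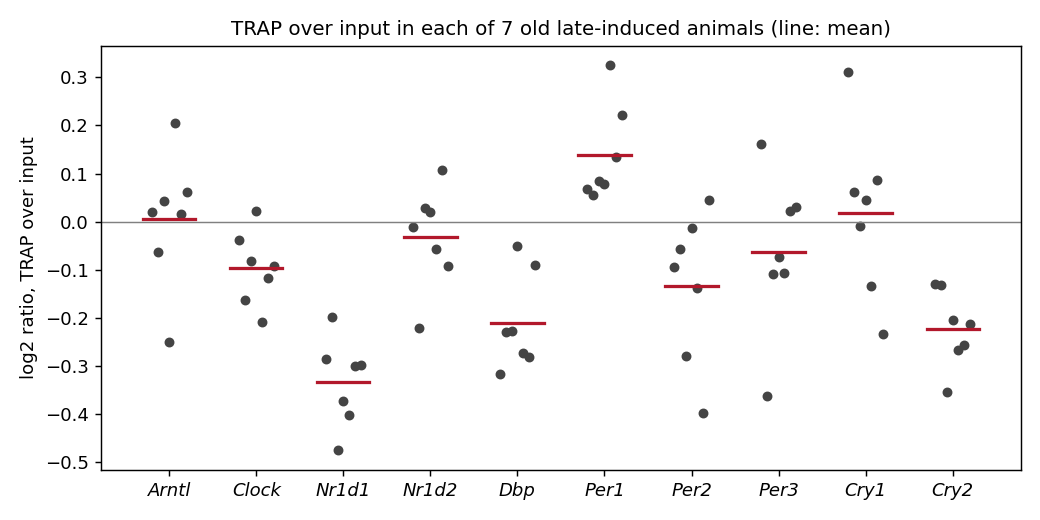
Log2 ratio of TRAP over input (vertical axis) for the 10 clock genes in each of 7 old late animals, with the mean as a red line. All 7 points lie below 0 for Nr1d1, Cry2 and Dbp and above 0 for Per1.

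Of 22 other clock genes tested 4 rose and 8 fell in TRAP, beside 30.4% and 28.8% of all genes, with a median of -0.115. Csnk1e rose by 0.64 ± 0.05 (edgeR adjusted p = 2.83e-09), Timeless by 0.40 ± 0.16 (adjusted p = 0.0422), Csnk1d, a second kinase of Period proteins, by 0.27 ± 0.04 (adjusted p = 6.21e-05) and Usp2, a clock-controlled deubiquitinase, by 0.19 ± 0.05 (adjusted p = 0.00401). Among the decreases, Ciart fell by 0.50 ± 0.11, Npas2 by 0.46 ± 0.09 and Rorb by 0.38 ± 0.15. Csnk1e had 161.9 to 204 CPM in TRAP and 105.3 to 123.4 CPM in input, and Npas2 had 20.95 to 29.6 CPM against 29.1 to 37.8 CPM, so that Csnk1e did not overlap and Npas2 did so at its edge.

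In the same pulldown 4 of 8 neuronal markers fell (median -0.17), 6 of 6 astrocyte markers fell (median -0.46), 6 of 6 oligodendrocyte markers fell (median -1.295, from -1.48 to -1.05), 3 of 3 blood markers fell and 4 of 4 endothelial markers rose (median 1.34). The values of Nr1d1, Cry2 and Dbp lie within the range of the neuronal markers, from -0.40 to 0.033, and of the astrocyte markers, from -0.93 to -0.14. How much of each clock transcript in TRAP came from tagged cells was not tested.

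Members were then followed across the 29 inputs after removing group and sex means. Of 45 pairs of members 32 had a correlation above 0, with a median of 0.121. The 5 pairs at or above 0.5 were Clock and Per2 (0.70), Nr1d2 and Dbp (0.655), Per1 and Cry2 (0.54), Per1 and Per2 (0.54) and Per2 and Cry2 (0.53), and no pair reached -0.5, the lowest being Nr1d1 and Nr1d2 at -0.47. These values describe 29 libraries that share depth and composition effects and carry no test. Without old early replicate 5, 25 of 45 pairs were above 0 with a median of 0.033, and Clock and Per2 had 0.545, Nr1d2 and Dbp 0.65, Per1 and Cry2 0.51, Per1 and Per2 0.51 and Per2 and Cry2 0.46. Blood markers moved with some of them: Clock had a correlation of -0.76 with the summed blood markers and 0.72 with the summed neuronal markers, and Per2 had -0.61 with blood, while Dbp had 0.118. These were -0.58, 0.70, -0.33 and 0.375 without old early replicate 5. The blood-rich old early replicate 5 was the lowest of its group in Arntl, Clock, Per2 and Per3. The part of tissue composition in these correlations was not tested.

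A set of 9 gene pairs was tested within each of the 3 input groups, 27 tests in all. Arntl and Npas2, both partners in activating complexes, were correlated in old early inputs (Pearson r = 0.847, permutation p = 0.00041, adjusted p = 0.0111; Spearman rho = 0.804, permutation p = 0.00243, adjusted p = 0.0328; n = 12). Without the 2 libraries farthest from the median of Arntl r was 0.63, and with sex means removed it was 0.855 (permutation p = 0.00257). Without old early replicate 5, the lowest library in Arntl, r was 0.736 and no longer passed adjustment (permutation p = 0.0051, adjusted p = 0.0688; rho = 0.745, permutation p = 0.0111, adjusted p = 0.1; n = 11). In young and old late inputs the same pair had r of 0.548 and 0.106, with adjusted permutation p-values of 0.344 and 0.879, and the difference between groups was not tested. Per1 and Fos in young inputs were the other pair under the threshold (adjusted permutation p = 0.0148). Both genes separated the sexes there, Fos with 6.57 to 11.2 CPM in females and 12.5 to 20.3 CPM in males, so no pooled r is given. With sex means removed r was 0.563 and did not pass (permutation p = 0.122, 5 libraries of each sex). The 25 other tests did not pass, among them Arntl and Dbp, whose r ran from -0.467 to 0.18, and Dbp and Per3, whose r was 0.684 in young inputs (adjusted permutation p = 0.211). Of these 25, Arntl and Nr1d1 in old late inputs came closest. Their r was 0.828 (adjusted permutation p = 0.161) and their rho 0.929 (adjusted permutation p = 0.0607).

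**Figure D4:**
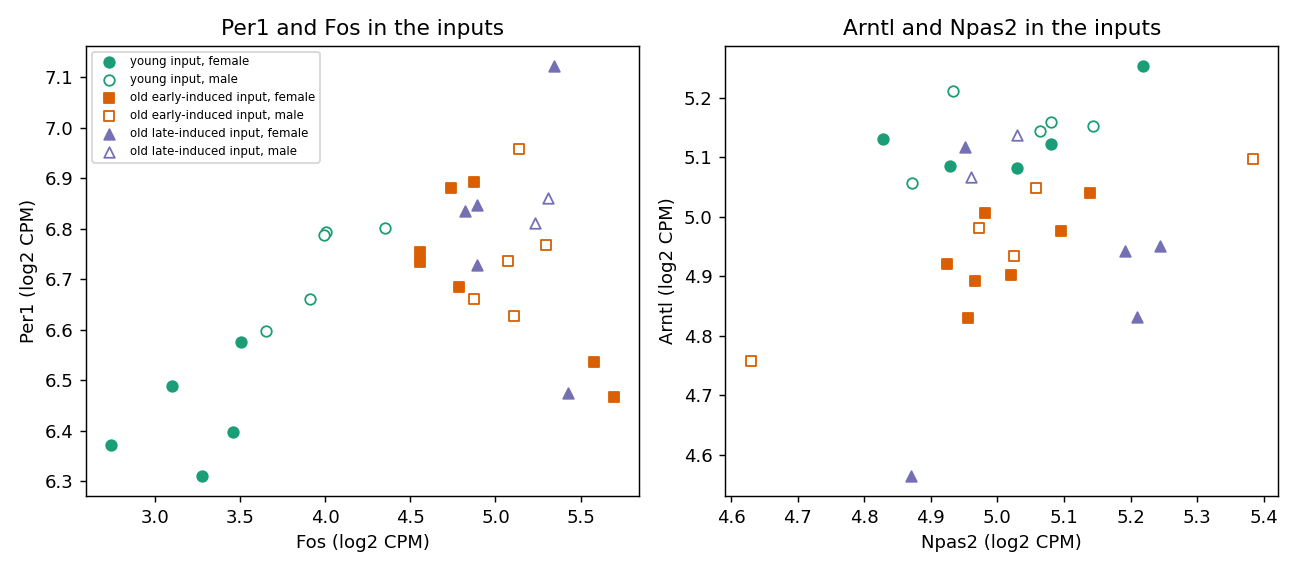
Log2 CPM of Per1 against Fos (left) and of Arntl against Npas2 (right) in the 29 inputs, with the shape and colour for the group, filled symbols for females and open ones for males. The young males lie above and to the right of the young females in the left panel, and Arntl and Npas2 rise together in the 12 old early inputs, where r was 0.847, or 0.736 without the lowest library in Arntl.

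Whether an animal high in input was also high in TRAP was asked over the 7 old late animals. None of the 10 correlations passed adjustment, and 3 had an unadjusted exact p under 0.05 by Pearson's r. Per2 came closest (r = 0.872, exact permutation p = 0.00714, adjusted p = 0.0714; rho = 0.821, exact permutation p = 0.0341, adjusted p = 0.176) and had r = 0.856 without the 2 animals farthest from the median. Per1 had r = 0.878 (exact permutation p = 0.0308, adjusted p = 0.118), which was -0.045 without those 2 animals and so rests on them. Clock had r = 0.771 (exact permutation p = 0.0438, adjusted p = 0.118) and Dbp r = 0.75 (exact permutation p = 0.0512, adjusted p = 0.118), at 0.543 and 0.772 without the 2 animals. The 2 lowest values were those of Nr1d2 at 0.198 and Cry1 at 0.202.

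The genes whose pattern was most like that of Dbp and Arntl were sought over the 29 inputs among 13053 genes, by the correlation of log2 CPM after removing group and sex means. For Dbp they were Trp53inp2 (0.72), Capn2 (0.71), Scn4b (0.70), Chrna4 (0.69) and Susd2 (0.67), and the lowest were Rsl1 (-0.70), Ccdc112 (-0.69), Ispd (-0.68), Adnp (-0.66) and Nabp2 (-0.645). For Arntl they were Cntnap3 (0.74), Wdr48 (0.69), Panx2 (0.68), Ythdc2 (0.67) and 2310035C23Rik (0.66), and the lowest were 2810410L24Rik (-0.79), Gpx3 (-0.75), Syngr2 (-0.74), Fam167a (-0.66) and Mdk (-0.65). Without old early replicate 5, 3 of the 5 highest and 2 of the 5 lowest genes for Dbp were again among the 5, and 1 and 4 for Arntl, so the list for Arntl rests in part on that library. With Nr1d2, the member most like it, Dbp reached 0.655.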

How the data were processed

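PolyA RNA of hippocampal input and TRAP fractions was sequenced. Values are estimated counts, which the authors deposited in 1 gene table and marked raw per the file headers, in 36 columns of which 0 were unmapped to a sample; 77.2% of the nonzero values were not whole (tolerance 1e-06). Build mm10 and DESeq2 are named in the submitters' processing notes, without a role; the aligner, counter and strand are not given in the sources used here.

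Counts were rounded and tested with edgeR 4.0.16 in R 4.3.3 (filterByExpr with a minimum count of 10, TMM, quasi-likelihood test), and a gene was called at an adjusted p under 0.05 (Benjamini-Hochberg, over all genes tested). One model of group and sex over 29 inputs gave the contrasts of age, induction and sex; 14 libraries with sex as covariate gave TRAP against input, and 22 early-induced inputs gave the interaction. The SE of an edgeR log2 fold change was taken as its absolute value divided by the square root of the F statistic of the test. The fit was checked on simulated data. CPM values are TMM-scaled over 36 libraries, and log2 CPM used a prior count of 2. Correlations had two-sided permutation tests (scipy 1.17.1), exact for 7 libraries and with 100000 resamples otherwise. DESeq2 1.42.0, limma 3.58.1 and other scalings were alternatives.

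TRAP and input were paired by animal number: deviations from group means correlated in 7 of 7 animals, from 0.292 to 0.439. Between different animals these correlations ran from -0.309 to 0.289, with a median of -0.085. No pair of libraries in a group agreed within sampling noise (chi-square per degree of freedom at least 3.66). Nothing says that animals of a group were handled apart, so p-values measure the spread between these animals. Named were all members, called genes of the clock list (at most 4 per direction) and up to 4 genes of each context list; of the 91 listed genes outside the members 90 were matched. One gene that this rule would name is not reported here. Members and lists were chosen with earlier results of these data known. Pulldowns from the early-induced groups were not analysed here.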

Additional observations from a re-analysis of the deposited data

Results flagged for a closer look

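Dixon's criterion was applied to 30 sets of values, 1 for each member and group of 7 or 10 libraries. In 2 of these sets 1 library lay far below the others, where chance gives about 1.5. The old early group was not among the sets, so these counts do not cover it. Per3 in TRAP replicate 2 had a log2 CPM of 4.507 (22.62 CPM), the lowest of 7, with the next at 4.883. Nr1d2 in young replicate 7 had a log2 CPM of 6.264 (76.73 CPM), the lowest of 10, with the next at 6.429. In the old early group, replicate 5 had the lowest log2 CPM of Per3 at 4.689, with the next at 5.005. It also had the highest of Nr1d1 at 8.133, with the next at 8.018. Whether these 2 values pass the criterion was not tested.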

How the results depend on the processing

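The animal, as a block for the pairing of TRAP and input, raised the calls from 8640 to 9330 genes and added Per1 (0.13, adjusted p = 0.0215); it changed no other member's call. In TRAP against input, upper quartile scaling called 6 members and library size alone 5, all lower, beside 6372 and 5748 of 14596 genes lower. Of all calls 34% and 38.3% were then higher, against 51.4%. Per1 became -0.021 and Cry1 -0.131 with upper quartile scaling. Cry1 was -0.092 with library size, -0.002 with relative log expression scaling and -0.001 with DESeq2. Arntl was 0.016 without the filter and 0.005 with voom. Nr1d2 by sex was 0.002 with upper quartile scaling, and Arntl in old late against old early females was -0.04.

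In females alone 2 members and 1198 genes were called in old early against young, 2787 genes in old late against young and 182 in old late against old early. The last comparison called 58 genes with DESeq2 and 0 with the 2 groups alone. Sex called 64 genes with DESeq2 and 12 in early-induced inputs, and the interaction 13 with DESeq2. Against young inputs, Nr1d1 in old early missed the threshold without the filter (adjusted p = 0.0578) or the sex covariate (0.0672), Arntl in old late missed it with upper quartile scaling (0.0602), and Cry2 and Nr1d1 in old late passed there (0.0309 and 0.0311). The causes were not tested. Removing sex means from 2 pair correlations, and values without old early replicate 5 for correlations, spread and gene lists, were chosen after seeing the data.

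Leaving out 1 library at a time gave, in TRAP, -0.058 to 0.013 for Arntl and -0.031 to 0.038 for Cry1, and Per1 passed without old late replicate 3 (0.181, adjusted p = 0.0489). Nr1d2 in old late against young ran from -0.007 to 0.037. Old late against old early called 0 to 164 genes (164 without old early replicate 5), with Arntl at -0.018 to 0.071, Per2 at -0.096 to 0.031 and Nr1d1 at -0.027 to 0. Sex called 17 to 32 genes, with Nr1d2 at -0.024 to 0.015. The interaction called 0 to 453 genes (453 without old early replicate 6), with Arntl at -0.004 to 0.075, Per3 at -0.01 to 0.1, Cry1 at -0.032 to 0.083 and Dbp at -0.068 to 0.133.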
